A study of Homo sapiens with 10 samples.

Results

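Bile duct cells secrete a bicarbonate-rich fluid, and the 10 genes described here encode the channels, exchangers, enzymes, water pores and receptor of that process: CFTR, SLC4A2, SLC4A4, ANO1, AQP1, AQP3, SCTR, GGT1, ATP1B1 and CA2. They were taken by name, as all probe sets annotated with exactly 1 gene symbol that is one of these names, which gave 26 probe sets for the 10 genes out of 54613 probe sets and 19775 genes tested. The cells were HuCCT1, a long-established human bile duct cancer line, carrying either an empty vector (5 arrays) or a vector labelled YAPS94A (5 arrays), and biotin-labelled cDNA from total RNA was hybridised to Affymetrix arrays. YAP1 is the co-activator held back by the Hippo kinases. The sample labels and the title name the S94A form, known for weakened TEAD binding, whereas the series' design text names the constitutively active S127A form, so the name on the samples, YAPS94A, is used throughout. All arrays come from this single tumour line, so no normal duct cells were compared, and the labels give neither the time after transfection nor whether the cells were a selected pool or a clone. Separate cultures are not stated for the 5 arrays of either vector, so p-values measure only how far these arrays spread, possibly for technical reasons.

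In the duct, the hormone secretin binds its receptor on cholangiocytes and raises cyclic AMP, and protein kinase A then opens the chloride channel CFTR in the apical membrane. The chloride that leaves is taken back in exchange for bicarbonate by the anion exchanger AE2 (SLC4A2), while carbonic anhydrase 2 (CA2) makes bicarbonate inside the cell and the sodium bicarbonate cotransporter NBCe1 (SLC4A4) can bring it in from the blood side. Water follows through aquaporins, ATP in bile opens the calcium-gated chloride channel ANO1 through purine receptors, and the sodium pump, of which ATP1B1 is a subunit, keeps up the gradients.

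The arrays were alike in overall signal, with medians of 6.25 to 6.28 and correlations (Pearson r over probe sets) from 0.9957 to 0.9991 among arrays of the same vector and from 0.9867 to 0.9901 otherwise. YAP1 itself read 12.05 to 12.49 with empty vector and 12.53 to 13.01 with YAPS94A, higher on all 5 construct arrays by 0.52 ± 0.11 (SE, limma adjusted p = 0.00384), and whether its probe set lies within the construct is not known here. Duct markers were bright: KRT19, KRT7, KRT8, KRT18, EPCAM, CDH1 and SOX9 read 12.65 to 14.08 with empty vector, and SPP1 read 4.95. Of the 8 duct markers measured, 5 were higher by 0.13 to 0.33 (KRT7, KRT19, KRT8, KRT18, CDH1) and SPP1 was lower (-0.79). The summed level of the 8 was 98.1 to 99.1 with empty vector and 98.2 to 99.2 with the construct. Hepatocyte markers were 2 higher (CPS1, CYP2E1) and 1 lower (FGB) of 10 (summed level 59.6 to 60.6 and 61.4 to 62.2), with ALB at 4.74 and 4.72 and CPS1 higher by 1.52. Fibroblast and stellate cell markers were 2 higher and 1 lower (RGS5) of 8 (50.7 to 52.1 and 55.4 to 56.2), with LUM and ACTA2 higher by 2.67 and 2.21 and COL3A1 at 4.60 with either vector. Leukocyte markers were 1 lower of 7 (LYZ, by -1.48, with CD3E at 4.49 and 4.50), with summed levels of 41.5 to 41.9 and 39.9 to 40.4. None of 6 endothelial markers was called by limma, 1 of them at an unadjusted p under 0.05 (29.1 to 29.7 and 28.7 to 29.6). Of all genes, 17.8% were higher and 16.6% lower by the same test. Genes named in this marker summary were chosen after their values were seen. The part of these markers in the differences given here was not tested.

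Of the 10 genes, 4 fell and 1 rose in the cells with the construct, and 5 did not pass the test. CFTR fell 14.9-fold and SLC4A4 fell 9.30-fold, AQP3 fell 1.74-fold and CA2 fell 1.47-fold, while ANO1 rose 1.19-fold. SLC4A2, AQP1, SCTR, GGT1 and ATP1B1 gave no call. Each gene is read here by its brightest probe set (the highest mean over the 10 arrays), in units of log2 signal, and a call is an adjusted p under 0.05 from limma over all probe sets. By that rule 34.4% of all genes and 28.6% of all probe sets were called, and 16.6% of all genes were called lower. Arrays of the 2 vectors were fully separated for 5 of the 10 genes, against 29.1% of all genes. Of the 26 probe sets 12 were called, 11 lower and 1 higher, against 14.7% of all probe sets called lower and 13.9% higher; 17.8% of all genes were called higher, and 23.0% of all probe sets were fully separated. A fall of at least 8-fold, as seen for CFTR and SLC4A4, was called for 41 genes in all (0.207%) and 61 probe sets (0.112%). The median difference over the 10 genes was -0.034, beside -0.0038 over all genes. In RNA from a whole culture, fewer cells expressing a gene and less RNA per cell cannot be told apart.

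**Figure D1:**
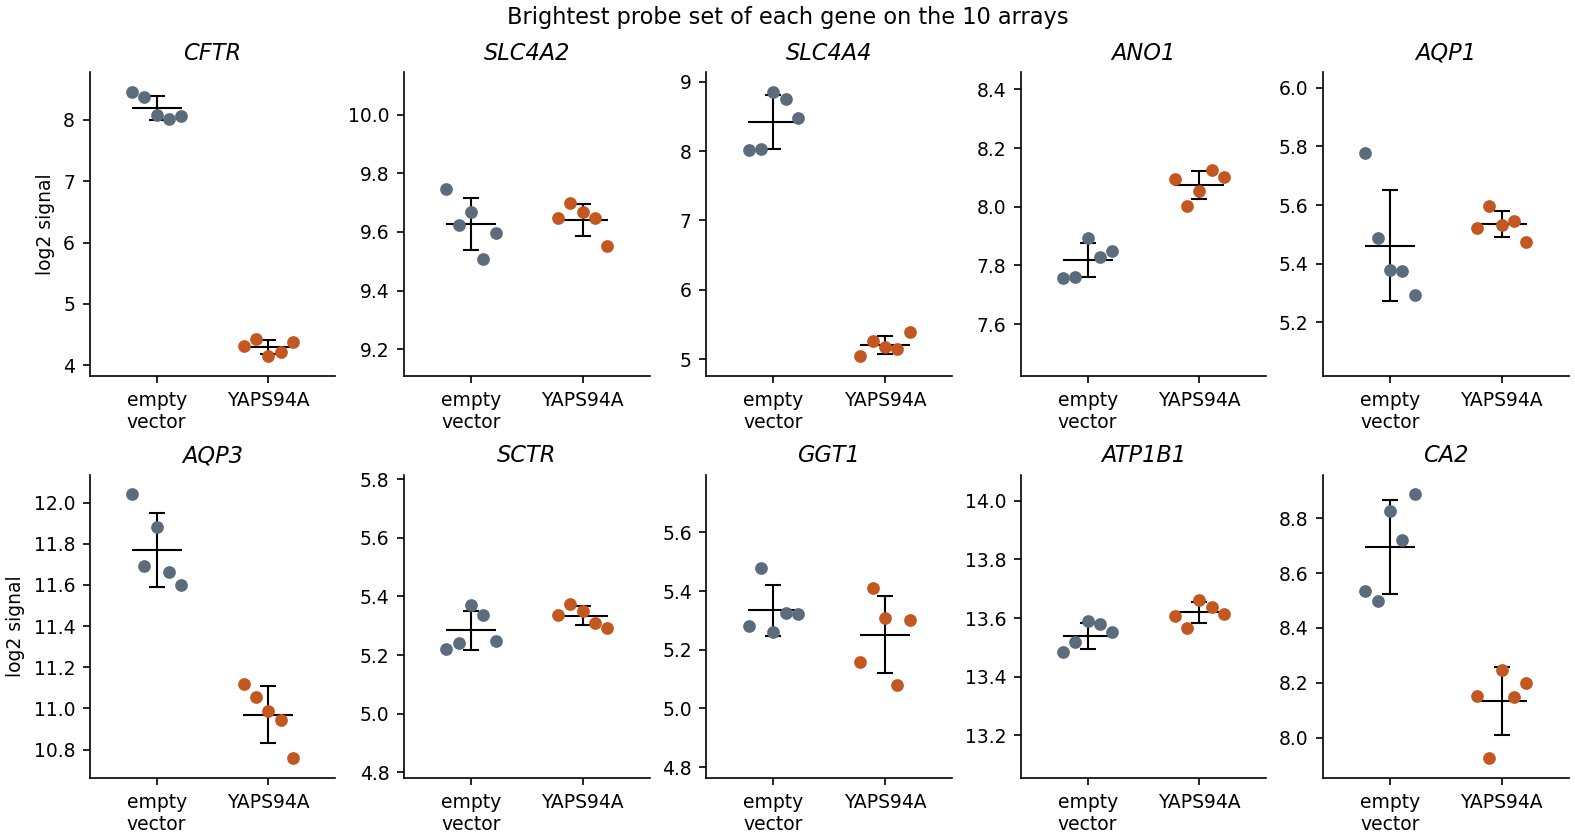
Log2 signal of the brightest probe set of each of the 10 genes on every array, 5 with empty vector and 5 with YAPS94A. Points are arrays, the bar is the group mean and the whiskers are the SD, and each panel has its own axis, which does not start at 0. The groups are apart for CFTR, SLC4A4, ANO1, AQP3 and CA2 and overlap for the other 5 genes.

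CFTR is the apical chloride and bicarbonate channel whose loss causes cystic fibrosis. With empty vector its brightest probe set (205043_at) read 8.45, 8.37, 8.07, 8.02 and 8.07 on arrays 1 to 5, and with YAPS94A it read 4.31, 4.42, 4.15, 4.22 and 4.38. Every construct array lay below every empty vector array, with a gap of 3.59 log2 units between the groups. Means were 8.20 ± 0.20 and 4.30 ± 0.11 (SD, n = 5 each), a difference of -3.90 ± 0.09 (SE, limma adjusted p = 6.23e-11), with a 95% interval of the fold of 13.0 to 17.1. The exact two-sided permutation p was 0.00794, the smallest that 5 arrays against 5 allow. The level with the construct lay below 4.73, the lower quartile of all signals, and without detection calls the background could limit the fold.

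CFTR had 6 probe sets, of which the 3 brightest fell and the 3 dimmest were not called. The second (215702_s_at) lay between 5.57 and 5.91 with empty vector and between 3.91 and 4.33 with the construct, a difference of -1.58 ± 0.09 (adjusted p = 7.15e-08). The third (215703_at) started at 4.58, already below the lower quartile, and fell by 0.71 ± 0.09 (adjusted p = 8.63e-05). The other 3 lay between 3.58 and 3.84 in the mean of either vector and differed by -0.017, -0.021 and 0.036, none past the test. These 3 started near the lowest signals of the arrays. Averaging all 6 probe sets of CFTR therefore gave a smaller difference of -1.03.

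SLC4A4 encodes NBCe1, the electrogenic cotransporter that loads cells with sodium and bicarbonate. Its brightest probe set (203908_at) read 8.02, 8.04, 8.85, 8.74 and 8.47 with empty vector and 5.05, 5.26, 5.18, 5.14 and 5.40 with YAPS94A. No array of one vector reached the other, the nearest lying 2.62 apart; within the empty vector group arrays 1 and 2 were the lowest. Means were 8.42 ± 0.39 and 5.21 ± 0.13 (SD, n = 5 each), a difference of -3.22 ± 0.16 (SE, adjusted p = 3.13e-08), a fold with a 95% interval of 7.32 to 11.8. Of its 5 probe sets, 4 fell. The next brightest of them (211494_s_at) went from 7.88 ± 0.16 to 5.29 ± 0.07 (SD, n = 5), a difference of -2.59 ± 0.07. Probe sets 210739_x_at, open to cross-hybridisation by its suffix, and 1554027_a_at differed by -1.67 ± 0.13 and -1.59 ± 0.06. The last one (210738_s_at) read 3.88 with either vector, at the floor. The mean of all 5 probe sets of SLC4A4 differed by -1.81.

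**Figure D2:**
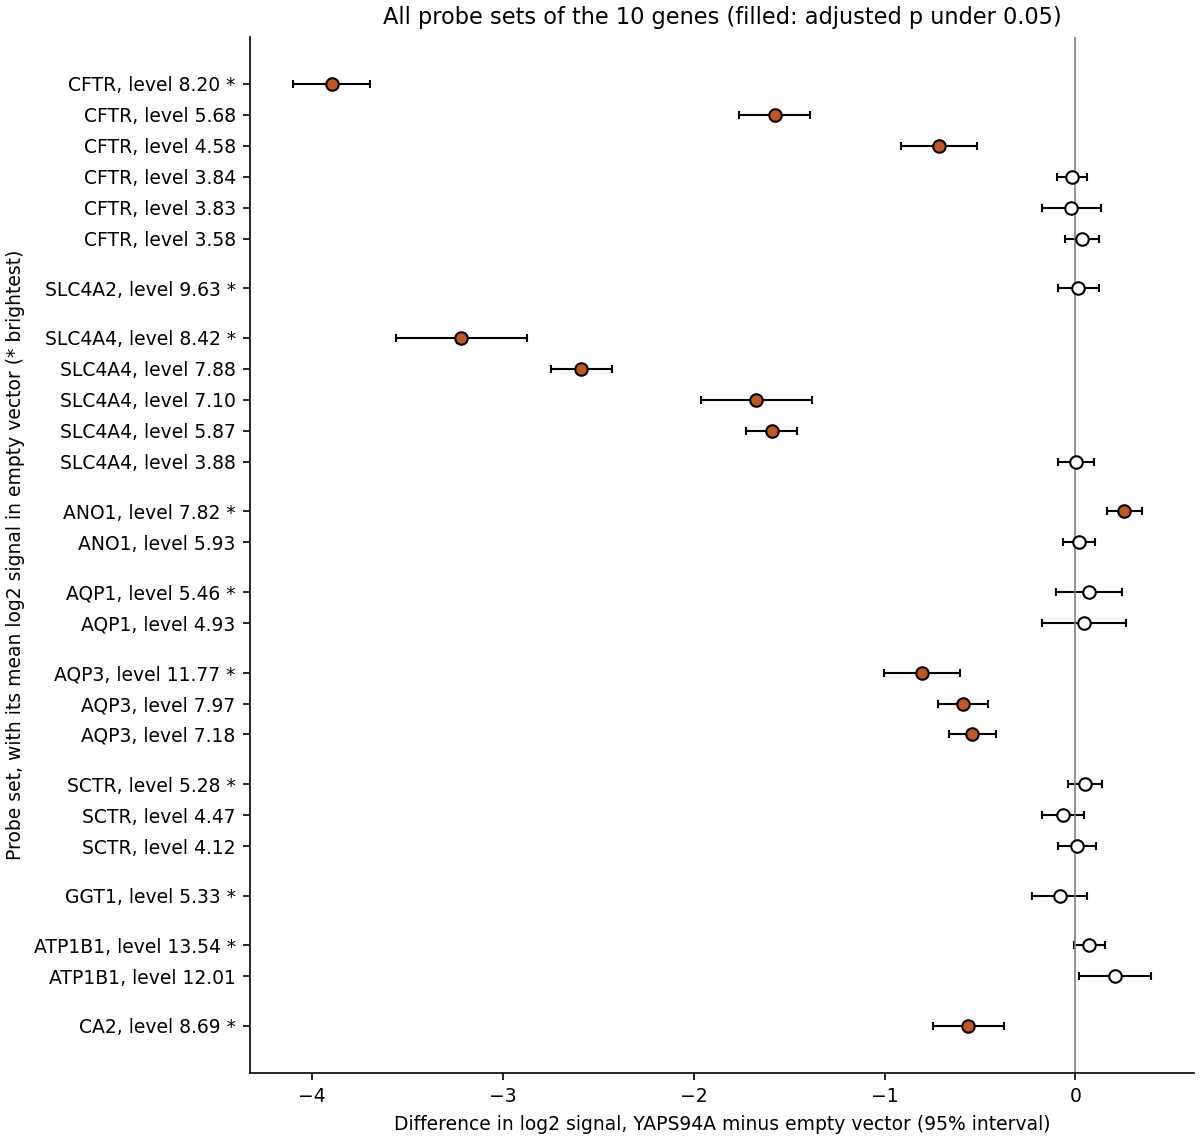
Difference in log2 signal, YAPS94A minus empty vector, for all 26 probe sets of the 10 genes, with 95% intervals from limma. Filled points passed the test at an adjusted p under 0.05, and each label gives the probe set's mean log2 signal with empty vector. The differences of CFTR and SLC4A4 shrink from -3.90 and -3.22 towards 0 as the starting level approaches the floor, and the 3 probe sets of AQP3 lie together.

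The regions just upstream of the start sites are shown for CFTR, SLC4A4 and AQP3, which fell, with the matches to 5 promoter motifs in capitals. The motifs were searched as exact letters on both strands in the 250 bases before each RefSeq start (GRCh38.p14): the TEAD motif GGAATG, the AP-1 motif TGANTCA, the cyclic AMP response element TGACGTCA, the box named for its letters CCAAT and the TATA box TATAAA. RefSeq promoter windows were matched by symbol for 9 of the genes, 17 windows in all, and those printed hold a match. For the members, windows on the chromosome of CA2 were left out, so CA2 was not searched. The count over all windows below did not leave out that chromosome. Sequences run 5′ to 3′ on the gene's strand and end at the base before the start.
CFTR (chr7:117479775-117480024, plus strand): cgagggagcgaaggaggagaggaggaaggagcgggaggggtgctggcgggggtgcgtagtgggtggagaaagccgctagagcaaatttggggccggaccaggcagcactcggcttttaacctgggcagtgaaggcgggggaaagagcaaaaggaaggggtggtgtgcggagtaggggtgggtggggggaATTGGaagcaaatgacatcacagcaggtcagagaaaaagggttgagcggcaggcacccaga
SLC4A4, the 4th of 5 starts (chr4:71235810-71236059, plus strand): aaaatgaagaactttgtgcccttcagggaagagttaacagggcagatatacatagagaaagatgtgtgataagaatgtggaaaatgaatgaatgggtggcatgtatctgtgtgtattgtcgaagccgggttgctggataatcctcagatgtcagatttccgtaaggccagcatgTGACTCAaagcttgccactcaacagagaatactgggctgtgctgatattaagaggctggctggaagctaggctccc
SLC4A4, the 5th of 5 starts (chr4:71338770-71339019, plus strand): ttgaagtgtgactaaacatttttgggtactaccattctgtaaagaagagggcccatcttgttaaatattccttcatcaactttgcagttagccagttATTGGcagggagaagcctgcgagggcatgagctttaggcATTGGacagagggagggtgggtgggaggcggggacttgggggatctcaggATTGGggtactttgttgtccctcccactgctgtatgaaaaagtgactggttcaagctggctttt
AQP3 (chr9:33447594-33447843, minus strand): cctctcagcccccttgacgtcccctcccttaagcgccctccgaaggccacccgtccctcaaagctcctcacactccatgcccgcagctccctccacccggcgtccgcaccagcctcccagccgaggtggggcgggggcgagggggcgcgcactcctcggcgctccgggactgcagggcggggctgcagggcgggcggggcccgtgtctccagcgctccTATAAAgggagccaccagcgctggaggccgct

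CFTR held a reverse-strand CCAAT box 61 to 57 bases before its start, and the 5th window of SLC4A4 held 3 such boxes, at 153 to 149, 114 to 110 and 64 to 60 bases. The 4th window of SLC4A4 held an AP-1 match 76 to 70 bases before its start. AQP3 held a TATA box 32 to 27 bases before its start. Windows 1 to 3 of SLC4A4 held no match, and which start these cells use is not known here. The AP-1 letters matched in 1 of the 17 windows. Of all 35116 windows, 32.0% hold CCAAT, 6.57% the AP-1 letters, 10.7% TATAAA, 11.9% the TEAD letters and 1.65% the full cyclic AMP response element. The TEAD letters and the full cyclic AMP response element matched in 0 of the 17 windows, which says only that these letters are not in these windows. CCAAT matched in 4 of the 17 windows, including 1 each of SLC4A2 and ATP1B1, which were not called, and the TATA box also matched in AQP1, which was not called.

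AQP3 encodes an aquaporin of basolateral membranes that also passes glycerol. Its brightest probe set (39248_at) read 12.04, 11.69, 11.88, 11.66 and 11.60 with empty vector and 11.12, 11.06, 10.99, 10.94 and 10.76 with the construct. The groups were 0.48 apart at their nearest. The means were 11.77 ± 0.18 and 10.97 ± 0.14 (SD, n = 5 each), a difference of -0.80 ± 0.09 (SE, adjusted p = 3.36e-05). The other probe sets of AQP3 differed by -0.59 ± 0.06 and -0.54 ± 0.06, also without overlap, so all 3 fell. The 30 genes nearest to AQP3 in chromosome order, of those above the median level, had a median difference of -0.25, with 4 of the 30 higher. Relative to them AQP3 was still at -0.55 and called. Here and below, the neighbour median was subtracted as a fixed value, with the gene's own SE and adjustment over genes.

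AQP1, the water channel best known from secretin-stimulated ducts, was dim and showed no call. Its probe set 207542_s_at read 5.78, 5.49, 5.38, 5.38 and 5.29 with empty vector and 5.52, 5.598, 5.53, 5.54 and 5.48 with YAPS94A. The construct arrays lay within the range of the empty vector arrays, of which array 1 was the highest. The difference was 0.073 ± 0.079 (SE, adjusted p = 0.569), with a 95% interval of -0.10 to 0.25. Without empty vector array 1 the difference of AQP1 was 0.15 (limma adjusted p = 0.0336), and without the arrays numbered 1 and 2 it was 0.17 (adjusted p = 0.0348). The dimmer probe set of AQP1 differed by 0.045 ± 0.100 and was not called.

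CA2, the cytosolic enzyme that turns carbon dioxide and water into bicarbonate, fell modestly. Its single probe set read 8.54, 8.50, 8.83, 8.72 and 8.89 with empty vector and 8.15, 7.92, 8.25, 8.15 and 8.20 with the construct. The highest construct array was 0.25 below the lowest empty vector array. The means were 8.69 ± 0.17 and 8.13 ± 0.12 (SD, n = 5 each), a difference of -0.56 ± 0.09 (SE, adjusted p = 0.000347). Within the empty vector group the brightest probe sets of CA2 and SLC4A4 were lowest on arrays 1 and 2, where that of CFTR was highest. The other called probe sets of SLC4A4 and CFTR did not share this order. The ACTB control probe sets, whose 3′ minus 5′ signal is a sign of RNA quality, read 1.51 and 1.24 on empty vector arrays 1 and 2. They read 0.84 to 1.14 on the other 3. With YAPS94A they read 1.14 and 1.43 on arrays 1 and 2 and 0.76 to 0.91 on the other 3. Between the vectors these ACTB values overlapped (0.84 to 1.51 and 0.76 to 1.43). The mean of this measure over the ACTB and GAPDH controls was fitted as a covariate, and the calls of all 10 genes were as before.

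SLC4A2, the apical chloride-bicarbonate exchanger AE2, was not called. It read 9.75, 9.62, 9.67, 9.51 and 9.60 with empty vector and 9.65, 9.70, 9.67, 9.65 and 9.55 with the construct. The construct arrays lay inside the range of the empty vector arrays. The difference was 0.015 ± 0.049 (SE, adjusted p = 0.871), with a 95% interval of -0.093 to 0.12. SLC4A2 has 1 probe set, so no second reading exists.

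ANO1, the calcium-activated chloride channel TMEM16A, was the only one of the 10 genes that rose. With empty vector it read 7.76, 7.76, 7.90, 7.83 and 7.85, and with YAPS94A 8.09, 8.001, 8.05, 8.12 and 8.10. All 5 construct arrays lay above all empty vector arrays, by 0.11 at the nearest. The difference was 0.26 ± 0.04 (SE, adjusted p = 0.000542), or 1.19-fold with a 95% interval of 1.12 to 1.27. The dimmer probe set of ANO1 (5.93 with empty vector) differed by 0.019 ± 0.039 and was not called. The 30 nearest genes to ANO1 had a median of 0.20, with 25 of the 30 higher, and relative to that median ANO1 was at 0.055 and lost its call (adjusted p = 0.325). For CFTR and SLC4A4 the neighbour medians were 0.057 and -0.19, and relative to them they were at -3.96 and -3.03.

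SCTR, the secretin receptor, was dim on all 3 probe sets and showed no call. The brightest read 5.22, 5.24, 5.37, 5.34 and 5.25 with empty vector and 5.34, 5.38, 5.35, 5.31 and 5.29 with YAPS94A. The groups overlapped, and the difference of 0.050 ± 0.041 (SE, adjusted p = 0.431) had a 95% interval of -0.039 to 0.14. The other SCTR probe sets lay at 4.47 and 4.12 with empty vector, below the lower quartile of signals, and differed by -0.064 ± 0.050 and 0.0089 ± 0.046, neither past the test.

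ATP1B1, the beta subunit of the sodium pump, was bright with either vector. Its brighter probe set read 13.48, 13.52, 13.59, 13.58 and 13.55 with empty vector and 13.61, 13.57, 13.66, 13.64 and 13.61 with the construct. On 4 of the 5 construct arrays it lay above every empty vector array, but the groups overlapped, and the difference of 0.073 ± 0.037 was not called (SE, adjusted p = 0.178, 95% interval -0.0076 to 0.15). The exact permutation p of this single value was 0.0238. The second probe set of ATP1B1 differed by 0.21 ± 0.086 (adjusted p = 0.103). ATP1B1 passed with an intensity trend in the variance (0.073, adjusted p = 0.0396) and in the mean of its probe sets (0.14, adjusted p = 0.045).

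GGT1, the surface gamma-glutamyltransferase that breaks down glutathione in bile and is a classic biliary enzyme marker, was read by 1 dim probe set. It read 5.28, 5.48, 5.26, 5.32 and 5.32 with empty vector and 5.16, 5.41, 5.31, 5.08 and 5.30 with the construct. The groups overlapped and the difference was -0.082 ± 0.066 (SE, adjusted p = 0.426, 95% interval -0.23 to 0.063). GGT1 has close gene copies, so even this reading could be shared between them.

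**Figure D3:**
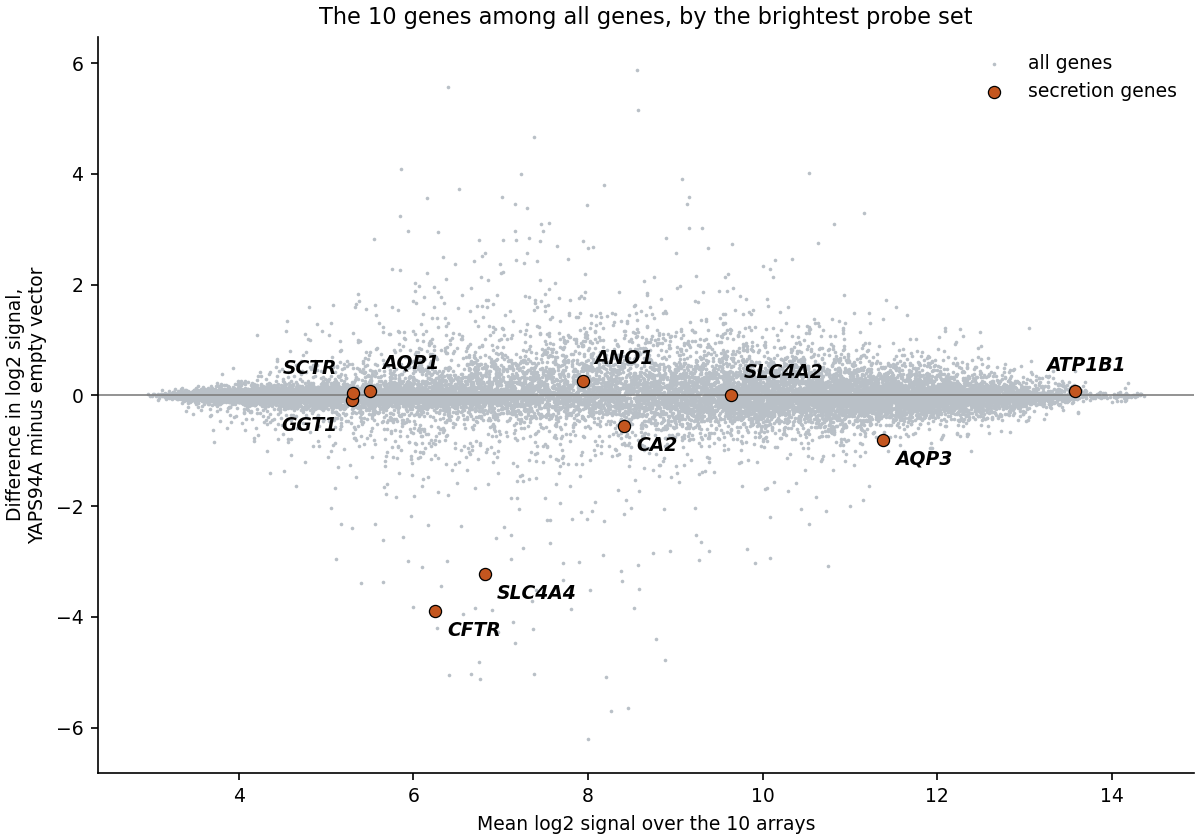
Difference in log2 signal, YAPS94A minus empty vector, against the mean log2 signal over the 10 arrays, for the brightest probe set of each of 19775 genes (grey) and the 10 secretion genes (orange). CFTR at -3.90 and SLC4A4 at -3.22 lie far below the bulk of genes, AQP3 lies at -0.80 and CA2 at -0.56, and the other 6 lie between -0.082 and 0.26.

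The wider secretory machinery was followed in 8 lists of related genes, 141 measured of 162 listed, each gene by its brightest probe set. Of the 141, 24 were higher, 25 were lower and 92 did not pass, which is 34.8% called and close to the 34.4% of all genes. The list medians lay between -0.083 and 0.034 in all 8, beside -0.0038 over all genes.

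Other anion channels and CFTR partners were 3 higher, 10 lower and 18 not past the test of 31, with a median difference of -0.083. GOPC, the Golgi PDZ protein that sends CFTR towards degradation, fell from 11.94 ± 0.06 to 10.94 ± 0.10 (SD, n = 5), a difference of -1.00 ± 0.05 (SE, adjusted p = 6.67e-08), and its other 4 probe sets also fell, with differences from -1.13 to -0.72. Genes around GOPC were lower too, with a neighbour median of -0.36. LRRC8C, a subunit of the volume-regulated anion channel, and CLCN5, an endosomal chloride-proton exchanger, differed by -0.81 ± 0.07 and -0.71 ± 0.04. BEST3, of the bestrophin channel family, rose by 0.57 ± 0.06, and its other probe sets, dim at 4.28 and 4.21 with empty vector, were not called. EZR, the apical scaffold protein ezrin and the brightest of the list, differed by -0.10 ± 0.03 (adjusted p = 0.0554) without overlap of the groups, and its other 4 probe sets fell, with differences from -0.28 to -0.17, while the genes around EZR had a median of -0.20. Named after their values were seen, the other members called higher were STK39 (0.49 ± 0.05), a kinase that acts on chloride cotransporters, and SNX27 (0.18 ± 0.05). The other members called lower were WNK1, STX1A, CLCN7, LRRC8D, ANO10, SLC26A6 and PDZK1, between -0.51 and -0.18. For ANO10 and SLC26A6 the groups overlapped.

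Other bicarbonate, proton and chloride transporters were 2 higher, 2 lower and 13 not past the test of 17 (median 0.021). SLC4A7, the electroneutral sodium bicarbonate cotransporter NBCn1, fell from 12.07 ± 0.12 to 11.55 ± 0.14 (SD, n = 5), a difference of -0.52 ± 0.08 (SE, adjusted p = 0.000244). Of its 3 other probe sets 1 was called, at -0.50 ± 0.15. SLC12A2, the NKCC1 cotransporter that loads secretory cells with chloride, rose by 0.26 ± 0.06, and by 0.46 ± 0.05 on its other probe set. SLC9A9, an endosomal sodium-proton exchanger, rose by 0.76 ± 0.09 from a dim 5.25, and its second probe set was not called. SLC9A5 differed by -0.14 ± 0.04 (adjusted p = 0.0234), beside a neighbour median of -0.10, and its other probe sets differed by -0.085 and 0.12 and were not called. AHCYL1, the IRBIT protein that activates NBCe1 and the brightest of the list, differed by -0.051 ± 0.056 and was not called. This list had 7 called genes with array weights, with the RNA quality covariate and relative to chromosome neighbours. It had 2 without _x_at and _s_at probe sets, a setting that leaves out the brightest probe sets of SLC4A7 and SLC9A5.

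Among 13 other carbonic anhydrases, CA12 and CA14 fell and 11 did not pass the test (median -0.034). CA12, a membrane-bound enzyme that faces the outside of the cell, went from 6.51 ± 0.15 to 5.51 ± 0.12 (SD, n = 5), a difference of -1.00 ± 0.08 (SE, adjusted p = 1.56e-06). Of its 6 other probe sets, 4 also fell, with differences from -1.35 to -0.33, and 2 differed by -0.0052 and 0.033 and were not called. CA14, also membrane-bound, fell by 0.64 ± 0.08 to 5.42. CA13, a cytosolic relative of CA2 and the brightest of the list, differed by -0.14 ± 0.07 (adjusted p = 0.198). Without _x_at and _s_at probe sets, and so without the brightest of CA12, 1 of the list was called. Neither CA12 nor CA14 is bright enough to be tested among probe sets above the median level.

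None of the 9 other aquaporins passed the limma test, 0 of them also at an unadjusted p under 0.05, with a median of 0.013. AQP11, an intracellular aquaporin and the brightest of them, read 6.989 ± 0.054 and 6.998 ± 0.063 (SD, n = 5). Sodium pump subunits and their FXYD regulators were 2 higher, 1 lower and 7 not past the test of 10 (median -0.026). FXYD3, a small regulator of the pump, rose from 8.93 ± 0.14 to 10.02 ± 0.10 (SD, n = 5), a difference of 1.10 ± 0.07 (SE, adjusted p = 3.22e-07), and by 0.88 ± 0.05 on its other probe set. FXYD6 differed by -0.45 ± 0.09. ATP1B4, listed by its name, was at the floor with 3.86 and 4.06. It differed by 0.20 ± 0.06, its groups nearly meeting at 4.024. ATP1B3, the brightest of the list, differed by 0.091 ± 0.057 and was not called, though its second probe set rose by 0.21 ± 0.04 (adjusted p = 0.00101). Above the median level 1 gene of the list was called.

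Receptors and second messengers of ductal secretion were 9 higher, 6 lower and 19 not past the test of 34 (median 0.034). The largest difference of the list was in PDE4D, a phosphodiesterase that breaks down cyclic AMP, which fell from 9.96 ± 0.24 to 6.80 ± 0.08 (SD, n = 5). That is a difference of -3.17 ± 0.10 (SE, adjusted p = 9.48e-10) or 9.0-fold, and all 5 other probe sets of PDE4D fell, with differences from -1.96 to -0.25. Its relative PDE4A rose by 0.96 ± 0.06 on its brightest probe set but was not called on the 4 dimmer probe sets. PRKAR2B, a regulatory subunit of protein kinase A, rose by 1.17 ± 0.09 from 4.37, below the lower quartile, to 5.54. P2RX4, an ATP-gated cation channel, rose by 1.16 ± 0.06, from 7.50 to 8.66. GNAS, the stimulatory G protein alpha subunit and the brightest of the list, differed by 0.045 ± 0.067 and was not called. Named after their values were seen, the others called higher were ADCY9, P2RY2, PRKACA, ADCY3, PRKACB and P2RY1, between 0.22 and 0.53. They include adenylyl cyclases, catalytic subunits of protein kinase A and purine receptors. The groups overlapped for P2RY2, ADCY3 and P2RY1, the last dim at 4.97 with empty vector. Others called lower were PDE4B (-0.91 ± 0.06), a further cyclic AMP phosphodiesterase, and the calcium release channels ITPR1 (-0.80 ± 0.07) and ITPR2 (-0.25 ± 0.05). Also called lower were ADCY4 (-0.25 ± 0.07) and, with overlapping groups, PRKAR2A (-0.15 ± 0.04).

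Genes of glutathione and bile acid handling were 5 higher, 4 lower and 7 not past the test of 16 (median 0.013). FABP6, the ileal bile acid binding protein, fell from 6.78 ± 0.15 to 5.71 ± 0.13 (SD, n = 5), a difference of -1.07 ± 0.08 (SE, adjusted p = 1.27e-06), while its other probe sets at 5.04 and 3.76 were not called. ABCC3, a basolateral exporter of conjugated bile acids, rose by 0.93 ± 0.12, and 3 of its 4 other probe sets rose as well. GGT7, a distant relative of GGT1, rose by 0.38 ± 0.04 and on its other probe sets by 0.83 ± 0.12 and 0.47 ± 0.06. SLC51A, a subunit of the bile acid exporter OST, rose by 0.34 ± 0.06 from a dim 4.97. ABCC1, an exporter of glutathione conjugates and the brightest of the list, fell by 0.26 ± 0.04. Named after their values were seen, the others called were ANPEP (0.30 ± 0.09), ABCC4 (0.30 ± 0.06) and the glutathione synthesis genes GCLC (-0.17 ± 0.04) and GCLM (-0.15 ± 0.05). For ANPEP and GCLM the groups overlapped. Potassium channels that back secretion were 3 higher and 8 not past the test of 11 (median 0.033). KCNK5, the TASK2 channel, rose by 0.66 ± 0.06, and KCNK1, the TWIK1 channel and the brightest of the list, by 0.37 ± 0.04. The other called was KCNN4, the calcium-activated IK channel, with overlapping groups (0.28 ± 0.10, adjusted p = 0.0468), named after its value was seen. Relative to chromosome neighbours 5 of these potassium channel genes were called.

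**Figure D4:**
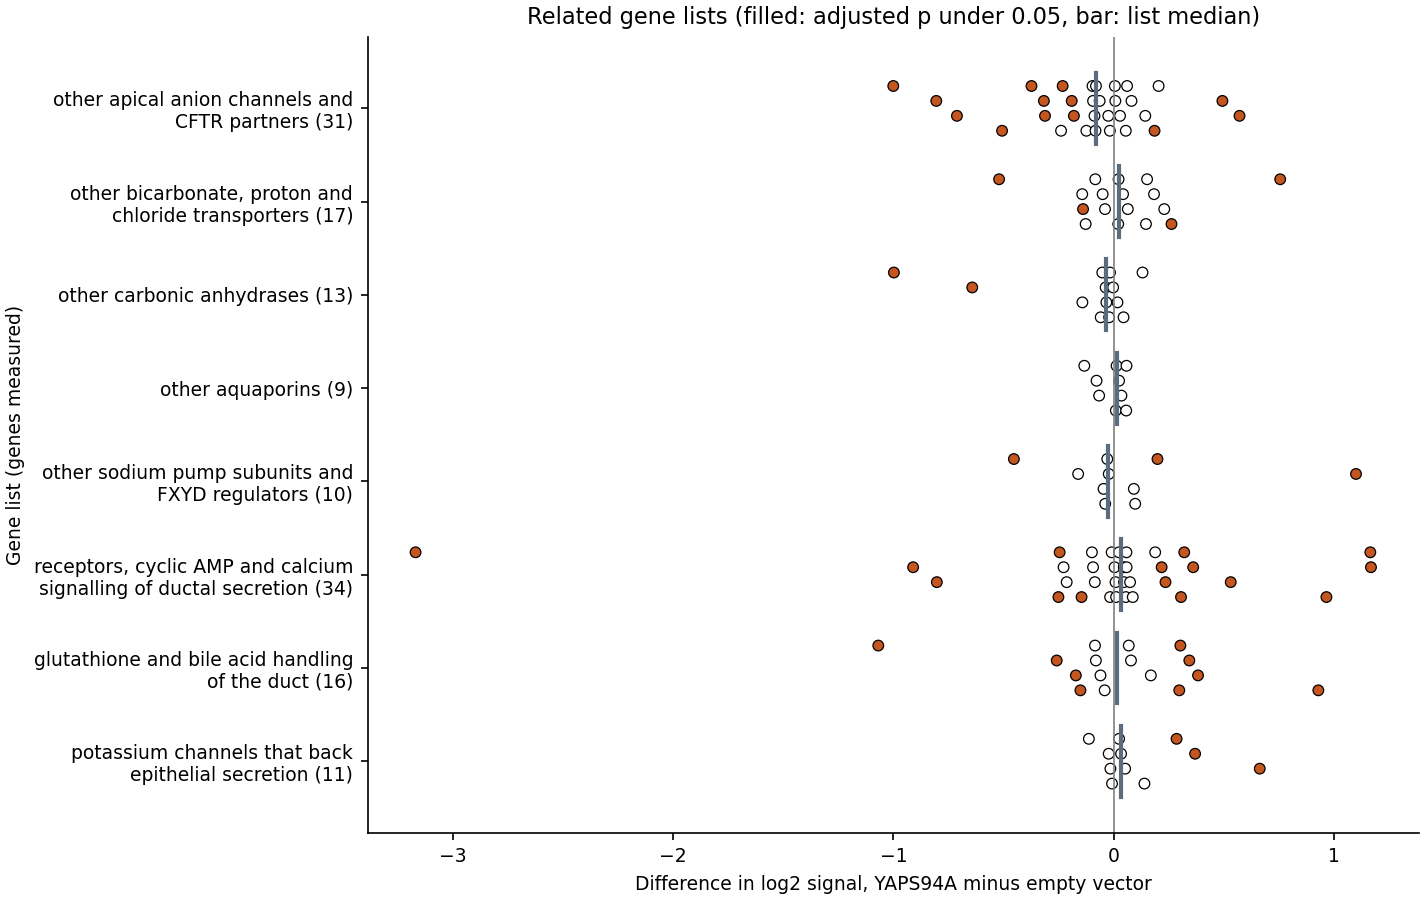
Difference in log2 signal, YAPS94A minus empty vector, for the 141 measured genes of 8 lists related to ductal secretion, each by its brightest probe set. Each point is a gene, filled where the adjusted p was under 0.05, and the bar is the list median. The medians lie between -0.083 and 0.034, and the lowest point is PDE4D at -3.17.

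By the rule of the highest Pearson r over the 10 arrays, the genes whose pattern was most like that of CFTR were ADAMTS9, NIBAN1, ARL14, HBBP1 and DAB2. Their r was 0.998 to 0.999, and their differences were -1.68, -2.82, -1.57, -2.67 and -1.19. The arrays form separate groups by vector, so r here follows the gap between them and is a description only, and 133 genes had an r over 0.99 with CFTR. For ANO1 the closest were DIPK2A, KAT2B, CCNG2, OLFML2A and TMTC2, with r from 0.983 to 0.987 and differences of 0.63, 1.02, 0.35, 1.598 and 1.76.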

How the data were processed

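Total RNA of HuCCT1 cells was amplified with a NuGEN kit and biotin-labelled cDNA was hybridised, per the labels' protocols. The authors deposited log2 signals of 54675 probe sets on 10 arrays, with the probe summary and normalization not given in the sources used here. Quartiles were nearly equal across arrays, so the deposited log2 values were used as they are, without the 62 control probe sets. Array signals carry no counts, so the number of arrays limits the precision.

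Gene symbols came from GEO's platform table and were brought up to date by RefSeq gene ID (GRCh38.p14). RefSeq also gave neighbour order and promoter sequences. Of the 54613 probe sets tested, 41091 had 1 symbol, 1801 had several and 11721 had none in the table. The 41091 stand for 19775 genes, and 41037 of them were found in RefSeq. Listed genes with no such probe set are not analysed here.

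The test was limma (3.58.1, in R 4.3.3), lmFit and eBayes with no covariate, two-sided, Benjamini-Hochberg over all 54613 probe sets, threshold 0.05. Differences are YAPS94A minus empty vector. Single values also had an exact permutation test (scipy 1.17.1). The fit was tested on simulated data. The members, lists, tests and naming rule were chosen with earlier results of these data known. The named list genes are the one with the highest mean level and up to 4 with the largest called, non-overlapping difference. The promoter windows printed were chosen after their matches were seen. Results were recomputed under up to 12 other settings, where their probe sets entered the setting, and with an RNA quality covariate chosen after seeing the data.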

Additional observations from a re-analysis of the deposited data

Results flagged for a closer look

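Of 52 groups of 5 arrays (26 probe sets, 2 vectors), 4 held an array far from the other 4 by Dixon's criterion, where chance flags about 1 group in 20. On the second CFTR probe set (215702_s_at) empty vector array 5 read 5.91, above the others at 5.57 to 5.66, away from the construct group. On the floor-level SLC4A4 probe set (210738_s_at) YAPS94A array 5 read 4.002, above 3.84 to 3.86. On the dimmer AQP1 probe set (209047_at) YAPS94A array 5 read 4.58, below 5.01 to 5.18. On the GGT1 probe set empty vector array 2 read 5.48, above 5.26 to 5.33.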

How the results depend on the processing

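Of the 10 genes, CFTR, SLC4A4, AQP3 and CA2 kept their direction and their call under every alternative run, with adjusted p-values of at most 6.75e-08, 7.5e-07, 0.000456 and 0.00131. CFTR, AQP1, SCTR and GGT1 could not be tested among probe sets above the median level, nor ATP1B1 without _x_at and _s_at probe sets. ANO1 lost its call relative to its chromosome neighbours (0.055, adjusted p = 0.325) and kept it under the other alternatives, with its mean over probe sets at 0.14. AQP1 gained a call without the arrays numbered 1 and 2 (0.17). Leaving out single arrays gave 0.031 to 0.15 for AQP1, called at the higher value, without empty vector array 1. ATP1B1 gained one with the intensity trend (0.073) and in the mean of its probe sets (0.14). SLC4A2, SCTR and GGT1 were called under none of the alternatives run. The cause of these changes was not tested, apart from the arrays left out. Counts of calls over all features were 15643 in the main setting, and 7172 with 1 probe set per gene, 7446 in the mean of probe sets and 10194 without _x_at and _s_at probe sets, where fewer features enter. Among the 10 genes 4 to 6 were called throughout, and 40 to 62 of the 141 list genes.

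The labels number the arrays 1 to 5 in both vectors. With this number as a replicate block 18259 probe sets, 5 of the 10 genes (CFTR -3.90, adjusted p = 5.26e-09) and 55 list genes were called, and no call among the 10 changed. Of the list genes, SLC9A5 lost its call (adjusted p = 0.0536) and 7 gained one: SLC26A9, WNK4, SLC4A3, SLC9A8, SLC12A4, ADCY6 and PRKAR1B. Deviations of same-numbered arrays correlated at 0.06 to 0.54 over all probe sets, over 0.1 in 4 of 5 pairs (0.10 to 0.59 over genes, 5 of 5), and 4 of 10 arrays were closest to their own number, so whether the numbers pair the arrays is not settled, and the fit without the block was kept. In both vectors the ACTB 3′ minus 5′ signal was highest on the arrays numbered 1 and 2. Its part in these correlations was not tested. Signal near the floor limits what SCTR, AQP1, GGT1 and the dim CFTR probe sets can show.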
